A study of Homo sapiens with 6 samples.

Results

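The genes described here are 10 components of the signalling complex that forms on tumour necrosis factor (TNF) receptor 1 and of the TAK1 kinase complex that it recruits. They were taken by symbol from the deposited gene table, and all 10 were found among its 32862 genes. RNA was sequenced after poly(A) selection from SH-SY5Y, a human neuroblastoma cell line of sympathetic lineage, in 3 libraries of wild-type (WT) cells and 3 of cells with CRISPR-Cas9 knockout (KO) of OTULIN, the deubiquitinase that cleaves linear ubiquitin chains. All 6 libraries were untreated, without added TNF, and carried the same batch label. Whether the KO cells were a clone or a pool, and whether replicates were separate cultures, is not given in the sources used here. The p-values therefore rest on the variation among these libraries, and that variation may be technical.

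TNF binding to its receptor, encoded by TNFRSF1A, gathers the adaptor TRADD and the kinase RIPK1 on the receptor's intracellular tail. TRAF2 then brings in the ubiquitin ligases cIAP1 (BIRC2) and cIAP2 (BIRC3), which build ubiquitin chains on RIPK1. The adaptors TAB2 and TAB3 bind these chains and hold the kinase TAK1 (MAP3K7), while NEMO (IKBKG), the regulatory subunit of the IKK complex, binds linear chains, the substrate of OTULIN. TAK1 activates IKK, which leads to NF-kB, and the MAP kinase kinases that lead to JNK and p38.

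Depth separated the groups in every library. The KO libraries held 725827 to 862932 counts and the WT libraries 61772795 to 64352333, a 78.5-fold difference of the means. Tests covered the 10820 genes whose mean over the 6 libraries reached 1 FPKM (fragments scaled to gene length and library depth). Of these, 71.3% were at 0 counts in all 3 KO libraries. OTULIN itself was at 0 counts in each KO library and at 1682, 2101 and 2155 in WT, but its absence does not check the labels, since most other genes were at 0 too. Of the 12 adrenergic neuroblastoma markers examined, 7 were at 0 in all KO libraries, among them DBH, PHOX2A and GATA3. HAND2, GATA2 and ISL1 were among those with counts in every KO library. The summed level of these markers was 7377 to 8257 CPM (counts scaled to a common library total) in WT and 736 to 885 CPM in KO. The 6 epithelial markers summed to 17.3 to 68.4 CPM in KO, on 14 to 59 counts. They summed to 6.49, 5.00 and 39.7 CPM in WT replicates 1, 2 and 3. The 5 blood and microglia markers in the table had at most 5 counts together in any KO library. The endothelial, fibroblast and glial markers, 8 in the table, summed to 60.3 to 110 CPM in KO and 25.8 to 33.7 CPM in WT. GFAP, AQP4 and DCN were at 0 in KO, and COL1A1 had 24 to 57 counts there. Because depth, composition and genotype label go together, their parts in the differences below cannot be told apart. In bulk RNA, fewer cells of a type and less RNA per cell cannot be told apart either.

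BIRC2 and BIRC3 lie side by side on chromosome 11, 7807 bases apart and on the same strand, and their WT levels lay far apart. The 250 bases before the start of each are shown because these adjacent paralogs differed so widely in WT. They are from RefSeq on GRCh38.p14, where 9 of the 10 members had an entry. Capitals mark matches to the NF-kB consensus motif, searched on both strands.

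BIRC3: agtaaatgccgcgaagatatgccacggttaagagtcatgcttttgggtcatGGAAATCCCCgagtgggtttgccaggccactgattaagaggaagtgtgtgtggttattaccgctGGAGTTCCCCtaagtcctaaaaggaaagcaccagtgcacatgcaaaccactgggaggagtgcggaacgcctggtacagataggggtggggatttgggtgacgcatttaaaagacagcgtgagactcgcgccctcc

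BIRC2: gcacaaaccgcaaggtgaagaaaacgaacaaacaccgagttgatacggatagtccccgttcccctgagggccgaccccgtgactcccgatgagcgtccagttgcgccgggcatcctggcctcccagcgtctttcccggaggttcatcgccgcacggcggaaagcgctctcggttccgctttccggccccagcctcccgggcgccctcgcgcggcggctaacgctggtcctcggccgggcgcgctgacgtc

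The BIRC3 window (chr11:102317234-102317483, plus strand) held 2 matches, which begin 199 and 135 bases before the gene's start and do not overlap. The BIRC2 window (chr11:102346964-102347213, plus strand) held 0 matches. Of 35116 such windows over all genes, 5.21% held at least 1 match and 0.635% at least 2. The BIRC2 window held 33 CG dinucleotides and the BIRC3 window 11, where the median window held 11. A match to the motif is a description of the letters and does not show a bound site.

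In WT cells 9 of the 10 members were measured at 1.68 to 11.6 FPKM in single libraries, and BIRC3 was nearly absent. FPKM values are scaled by gene length and allow levels of different genes to be compared. By mean WT FPKM the order was TAB2, MAP3K7, BIRC2, TRAF2, IKBKG, TAB3, RIPK1, TRADD, TNFRSF1A and BIRC3. MAP3K7 and BIRC2 overlapped in their 3 WT values, as did TAB3 and RIPK1, and RIPK1 and TRADD. The other neighbours in the order did not overlap.

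**Figure D1:**
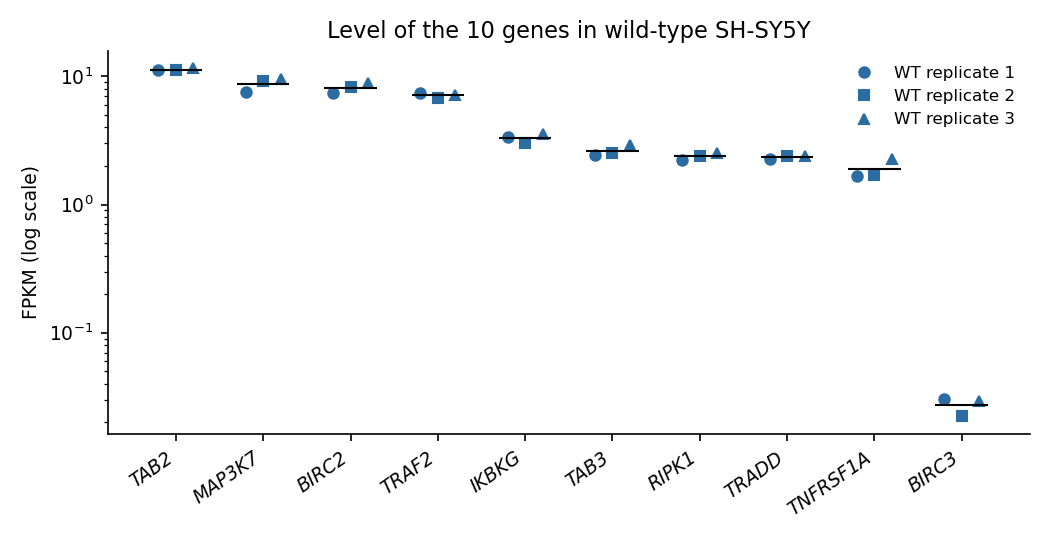
FPKM (log scale) of the 10 members in the 3 WT libraries, ordered by mean, with 1 symbol per library and a bar at the mean. TAB2 was highest, between 11.1 and 11.6 FPKM, and BIRC3 lay below all others, between 0.0222 and 0.0302 FPKM.

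The receptor gene TNFRSF1A (ENSG00000067182, hg38 chromosome 12, 6328757 to 6342114, minus strand) was at 1.68, 1.70 and 2.26 FPKM in WT. Its 484, 505 and 646 WT counts were highest in replicate 3, the library in which the epithelial markers summed highest. In CPM, RIPK1, TRADD, BIRC2, MAP3K7, TAB2, TAB3 and IKBKG were also highest in WT replicate 3, and TRAF2 and BIRC3 were not. The part of other cells in these values was not tested. TRADD (ENSG00000102871, chromosome 16, 67154185 to 67159909, minus strand), the adaptor with a death domain, was at 2.28, 2.39 and 2.40 FPKM. RIPK1 (ENSG00000137275, chromosome 6, 3063824 to 3115185, plus strand), the scaffold kinase, was at 2.21, 2.40 and 2.53 FPKM. On the FPKM scale the receptor and these direct partners lay close together, but in CPM, without length, their means were 8.70, 5.62 and 31.6 for TNFRSF1A, TRADD and RIPK1. By FPKM TNFRSF1A stood at percentile 67.6 of the genes with a WT count, TRADD at 69.9 and RIPK1 at 70.0.

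TRAF2 (ENSG00000127191, chromosome 9, 136881912 to 136923881, plus strand), which links the receptor complex to the cIAP ligases, was at 7.36, 6.79 and 7.22 FPKM in WT. BIRC2 (ENSG00000110330, chromosome 11, 102347211 to 102378670, plus strand) was at 7.37, 8.27 and 8.91 FPKM. BIRC3 (ENSG00000023445, chromosome 11, 102317484 to 102339403, plus strand) was at 0.0302, 0.0222 and 0.0295 FPKM, on 16, 12 and 15 counts. The FPKM of BIRC2 exceeded that of BIRC3 244-fold, 372-fold and 302-fold within the 3 WT libraries. In these cells the cIAP transcripts were thus almost wholly those of BIRC2. The longest coding transcripts of the pair share 11 stretches of 50 bases, 0.274% of those of BIRC2, so little of either can be miscounted as the other through exact matches.

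MAP3K7 (ENSG00000135341, chromosome 6, 90513573 to 90587086, minus strand), which encodes TAK1, was at 7.52, 9.19 and 9.49 FPKM in WT. TAB2 (ENSG00000055208, chromosome 6, 149218641 to 149411613, plus strand) was at 11.1, 11.2 and 11.6 FPKM. TAB3 (ENSG00000157625, chromosome X, 30827442 to 30975084, minus strand), its paralog, was at 2.41, 2.53 and 2.91 FPKM. The chain-binding adaptor of TAK1 was therefore mostly TAB2 at the RNA level, with TAB3 at 0.217, 0.226 and 0.251 of its FPKM in the 3 WT libraries. IKBKG (ENSG00000269335, chromosome X, 154541199 to 154565046, plus strand) was at 3.36, 3.03 and 3.56 FPKM. Of the 2250 stretches of 50 bases in its longest coding transcript, 1024 (45.5%) also occur in its pseudogene IKBKGP1. IKBKGP1 had 398, 281 and 156 WT counts, so the split of reads between gene and pseudogene is uncertain. For the remaining 9 members at most 0.274% of such stretches occur in another gene on the same strand. On the opposite strand the share was 4.62% for RIPK1, 4.27% for TRADD and 2.93% for TAB3, each from 1 overlapping gene. Whether reads were counted by strand is not given in the sources used here.

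The order of the members rests on the length behind each FPKM value. The length implied by counts and WT FPKM was 13302 bases for RIPK1, whose longest coding transcript in GENCODE 29 has 4160. For TAB3 it was 13724 against 6671, and for TRADD 2384 against 1877. On the CPM scale, without length, RIPK1 moved from place 7 to 5 and TAB3 from 6 to 4, IKBKG fell from 5 to 7 and TRAF2 from 4 to 6. MAP3K7 then stood above TAB2.

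In the libraries labelled OTULIN KO, 2 of the 10 members had counts in every library, 1 in a single library and 7 in none. Among the 8 members tested, 2 had counts in every KO library and 5 were at 0 throughout. Over all tested genes 13.9% had a count in every KO library and 71.3% were at 0 throughout. TAB2 had 107, 104 and 114 counts, MAP3K7 64, 80 and 92, and TAB3 0, 0 and 7. TNFRSF1A, TRADD, RIPK1, TRAF2, BIRC2, BIRC3 and IKBKG were at 0 in all 3. The receptor, its adaptors, the ligases and NEMO were thus unseen, while MAP3K7 and TAB2 were seen. TAB1, a TAK1 partner in the IKK and NF-kB list below, was at 0 in all 3 KO libraries and had 1009, 1000 and 955 counts in WT.

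**Figure D2:**
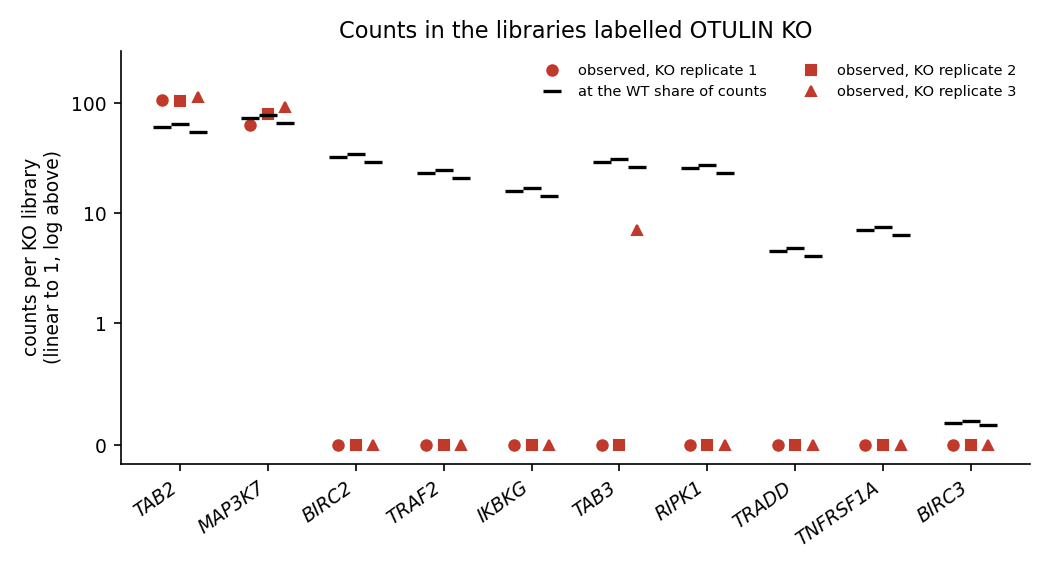
Counts of the 10 members in each KO library (red symbols), with the count that the mean WT share of the library total would give (black bars). The axis is linear up to 1 and logarithmic above. TAB2 lay above its bars in all 3 libraries, MAP3K7 on both sides of them, and the other members below theirs.

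The KO libraries could have shown most of these genes at their WT share of counts. Over the 3 KO libraries together, with 2398362 counts, that share gives 96.7 counts for BIRC2, 86.2 for TAB3 and 75.9 for RIPK1. It gives 68.4 for TRAF2, 47.2 for IKBKG, 20.9 for TNFRSF1A, 13.5 for TRADD and 0.549 for BIRC3. A count of 0 allows up to 3 counts over the group, or 1.25 CPM. These limits and the intervals given here cover counting error only. Against this limit BIRC2 was at least 32.2-fold lower in KO, RIPK1 at least 25.3-fold, TRAF2 at least 22.8-fold and IKBKG at least 15.7-fold. TNFRSF1A was at least 6.95-fold lower and TRADD at least 4.49-fold. For BIRC3 no difference was detectable at this depth.

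Of the 10 members, 8 passed the filter on mean FPKM. TNFRSF1A, at a mean of 0.941 FPKM over the 6 libraries, and BIRC3, at 0.0137, did not. A gene at 0 in KO could pass this filter only through its WT level, so the filter itself favours lower calls for such genes. This holds for 5 of the members tested and for the 71.3% of all tested genes at 0 in every KO library. Among the 8 tested, 6 were called lower in KO (BIRC2, TRAF2, RIPK1, IKBKG, TRADD and TAB3), 1 was called higher (TAB2) and 1 was not called (MAP3K7), by edgeR's quasi-likelihood test with Benjamini-Hochberg adjustment over all tested genes. Of all tested genes 88.0% were called lower and 7.63% higher, so the members' count is near the background. The median log2 change of the 8 was -11.39, against -12.42 over all tested genes. Both medians are set by genes at 0 in KO, whose fitted changes depend on the prior count. Adjusted p-values of the 5 called members without KO counts ran from 2.4e-05 for TRAF2 to 0.00016 for TRADD. With no filter on mean FPKM TNFRSF1A was called lower as well (edgeR adjusted p = 0.0013), and BIRC3 was not (edgeR adjusted p = 0.37). Under that setting 42.6% of the 32862 genes were called lower and 2.46% higher, and 7 members were lower and 1 higher.

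TAB3 fell in KO. Its WT levels were 33.1, 34.7 and 40.0 CPM, and its KO levels 0, 0 and 9.64 CPM. No KO value reached the WT range, as for 88.0% of tested genes, whose KO values all lay below their WT values. The means differed 11.2-fold, with a 95% counting interval on the 7 pooled KO counts from 5.98-fold to 30.6-fold. On the log2 scale edgeR gave -4.01 (SE 0.62, adjusted p = 0.00065). All 7 counts came from KO replicate 3, without which TAB3 was at 0 in KO (edgeR adjusted p = 5.7e-05).

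The paralogs TAB2 and TAB3 can be compared within a library, where total counts cancel. TAB3 had 0.447, 0.465 and 0.518 counts per TAB2 count in the WT libraries. In KO the ratio was 0, 0 and 0.0614. At the WT ratio the 325 TAB2 counts of the KO libraries would go with 155 TAB3 counts, where 7 were seen. The shortfall of TAB3 relative to TAB2 therefore does not rest on the library scaling, but it is not particular to TAB3. Counts of TAB2 were present in every KO library, as for 13.9% of tested genes, while 71.3% were at 0 throughout. Any gene at 0 in KO has a ratio of 0 to TAB2 there.

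TAB2 and MAP3K7 were the members measured in both groups. TAB2 was at 74.0, 74.6 and 77.3 CPM in WT and at 132, 121 and 157 CPM in KO, without overlap, as for 8.15% of tested genes with every KO value above every WT value. The means of 75.3 ± 1.8 and 137 ± 19 CPM (SD, n = 3 each) gave a 1.81-fold higher level in KO. With TMM factors edgeR put TAB2 at 0.46 on the log2 scale (SE 0.09, adjusted p = 0.0020). With median-ratio scaling the change was -0.10 and the call was lost (edgeR adjusted p = 0.20). MAP3K7 was at 78.2, 95.6 and 98.8 CPM in WT and at 79.1, 92.7 and 127 CPM in KO, and the groups overlapped. Its log2 change was -0.27 (SE 0.18, edgeR adjusted p = 0.19). MAP3K7 was above 0 with library totals alone (0.12, edgeR adjusted p = 0.53), and was called lower with median-ratio scaling (-0.83, edgeR adjusted p = 0.00094).

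**Figure D3:**
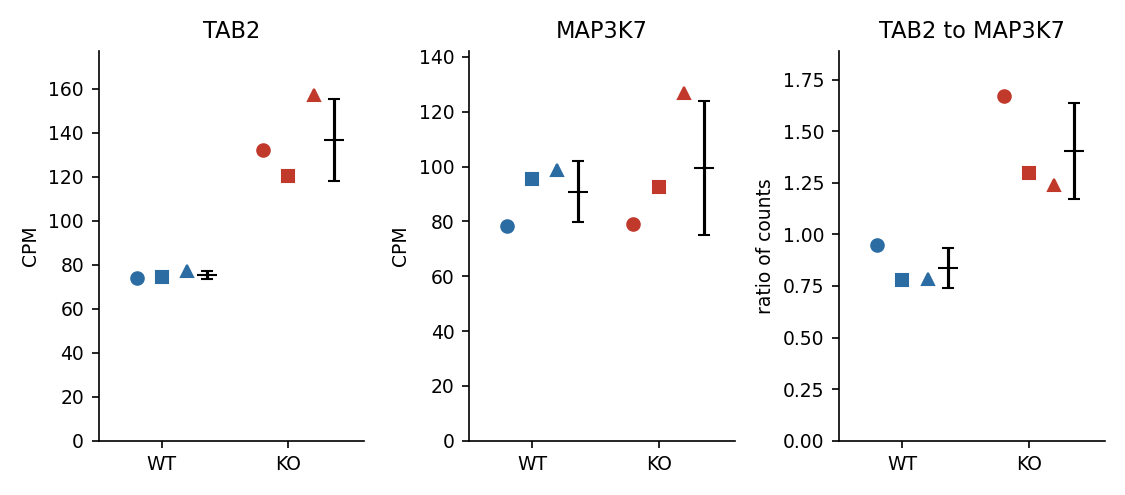
TAB2 and MAP3K7 in CPM, and the ratio of their counts, in the 3 WT (blue) and 3 KO (red) libraries, with 1 symbol shape per replicate number and the mean ± SD in black. TAB2 and the ratio did not overlap between groups, while MAP3K7 did.

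The scaling moved all genes together. For the 1496 tested genes with 30 or more counts summed over KO, the middle log2 change lay at 0.57 under TMM, at 0.01 under median-ratio factors and at 0.96 when only totals were used. TAB2 stood at percentile 48.3 of these genes under each scaling. MAP3K7 stood at percentile 36.2 or 36.3. Relative to the genes that the KO libraries contained, TAB2 was thus at the middle, and whether it was called higher depended on the scaling. With median-ratio scaling 7 of the 8 members tested were lower and 0 higher, where the background was 89.9% and 6.43% (edgeR), and TAB2 had an unadjusted p of 0.20. DESeq2 likewise gave 7 lower and 0 higher beside 89.3% and 6.54%. With library totals alone 6 were lower and 1 higher, beside 86.6% and 8.52%. With a mean of at least 5 FPKM, TAB2 and MAP3K7 alone were tested and MAP3K7 was called lower, beside 81.6% lower and 13.8% higher.

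The ratio of TAB2 to MAP3K7 counts within a library is free of that scale. It was 0.946, 0.781 and 0.783 in WT and 1.67, 1.3 and 1.24 in KO. Every KO library lay above every WT library, by 0.74 on the log2 scale, a 1.67-fold difference (exact two-sided permutation test, p = 0.1, the smallest that 3 against 3 allows). From FPKM in place of counts the difference was 0.75. Each KO value rests on 64 to 114 counts per gene. The pair was chosen with its KO counts known, and how often other gene pairs separate in this way was not tested. The ratio averaged 0.837 ± 0.095 over the WT libraries and 1.40 ± 0.23 over those of KO (SD, n = 3 each).

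The rest of the pathway was read from 6 further lists, with values as mean ± SD of the 3 libraries of a group. The background for each list is the whole set tested, with 71.3% at 0 in every KO library, 88.0% called lower, 7.63% called higher and a median log2 change of -12.42. Among TNF ligands and other receptors of the TNF family, of 19 listed genes 16 were in the table, 15 of these were at 0 in all KO libraries, and all 5 tested were called lower, near the 88.0% of all genes. TNFRSF10B, a receptor for the death ligand TRAIL, had the highest WT level of the list at 10.6 ± 0.74 FPKM and was at least 46.3-fold lower. TNFRSF12A, the TWEAK receptor, was at 8.05 ± 1.2 FPKM in WT and at least 12.7-fold lower. TNFRSF21, a death-domain receptor of neurons, was at 4.68 ± 0.66 FPKM in WT and at least 14.7-fold lower. LTBR, the lymphotoxin beta receptor, had 5 counts in KO replicate 2 and 35 in WT replicate 3 and was at 0 in the other 4 libraries. LTA and LTB, the lymphotoxin genes, had at most 8 counts in any WT library. TNF itself was listed but was not among the 16 genes found.

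Other adaptors and ligases held the genes with the most KO counts. Of 10 tested, 6 were lower, 3 higher and 1 was not called, and the list's median log2 change was -5.16, beside 88.0% lower, 7.63% higher and a median of -12.42 over all genes. All 3 that rose were ubiquitin-conjugating enzymes. UBE2D3, a partner of many ligases including the cIAPs, averaged 299 ± 14 CPM over the WT libraries and 11423 ± 1151 CPM over KO, 38.3-fold higher (edgeR adjusted p = 4.4e-07). UBE2N, which makes the K63-linked chains that TAB2 and TAB3 bind, was 14.2-fold higher at 3411 ± 490 against 240 ± 9.0 CPM (edgeR adjusted p = 2.0e-06). UBE2L3, the conjugating enzyme of the linear chain ligase, was 14.2-fold higher at 1709 ± 180 against 121 ± 5.9 CPM (edgeR adjusted p = 1.6e-06). UBE2V1, a cofactor of UBE2N, had no KO counts, which puts it at least 123-fold below WT. XIAP, the inhibitor of apoptosis related to the cIAPs and chosen after its values were seen, had 26, 42 and 22 KO counts. Its mean was 37.0 CPM in KO and 35.6 in WT, and with TMM factors it was not called (-0.32 on the log2 scale, SE 0.21, edgeR adjusted p = 0.19). It was called lower with median-ratio scaling (-0.87, edgeR adjusted p = 0.0063).

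Of the genes that write, read or edit linear chains, all 9, OTULIN included, were at 0 in every KO library and the 8 tested were called lower, where 71.3% of all tested genes were at 0 and 88.0% were lower. SHARPIN, TNIP1 and TNIP2 were the highest in WT at 11.2 ± 0.93, 7.89 ± 0.66 and 7.45 ± 0.53 FPKM.

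In the IKK and NF-kB list, CHUK alone had counts in every KO library, where 13.9% of all tested genes did. CHUK, a catalytic subunit of IKK, had 57, 68 and 69 KO counts. It was at 46.0, 54.6 and 57.7 CPM in WT and 70.4, 78.8 and 95.1 CPM in KO. Every KO value lay above every WT value, as for 8.15% of tested genes. With TMM factors CHUK was not called (0.23 on the log2 scale, SE 0.14, edgeR adjusted p = 0.16). It was called lower with median-ratio scaling (-0.33, edgeR adjusted p = 0.021) and higher with library totals alone (0.62, edgeR adjusted p = 0.0054). With totals alone the middle log2 change of the 1496 tested genes with 30 or more KO counts was 0.96. Of the 15 genes of the list, 11 were at 0 in all KO libraries, and of the 6 tested 3 were at 0, 4 were lower and 2 were not called, beside 71.3% at 0 and 88.0% lower over all genes. NFKBIA, the inhibitor of NF-kB, had 91, 0 and 0 KO counts and thus rested on KO replicate 1, without which it was at 0 in KO. RELA, the main activating NF-kB subunit, had 4, 0 and 0 counts and was 46.7-fold lower, with a 95% counting interval from 18.0 to 169. NFKBIB, another NF-kB inhibitor, was at least 18.7-fold lower. NFKB1 had 0, 4 and 0 KO counts and was below the filter on mean FPKM.

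The MAP kinase arm had 5 of 16 genes with counts in every KO library, all 5 of them among the 13 tested. Over all tested genes that share was 13.9%. Of 13 tested, 9 were lower, 3 higher and 1 was not called, beside 88.0% lower and 7.63% higher over all genes. MAP2K4, a kinase of JNK, rose 6.14-fold, from 51.5 ± 5.8 CPM in WT to 316 ± 39 in KO (log2 change 2.22, SE 0.12, edgeR adjusted p = 1.2e-05). MAPK8, which encodes JNK1, was 1.88-fold higher at 282 ± 56 against 150 ± 11 CPM (log2 change 0.51, SE 0.16, edgeR adjusted p = 0.017). ATF2, a transcription factor phosphorylated by JNK and p38, was at 116 ± 33 against 63.6 ± 3.3 CPM (log2 change 0.46, SE 0.18, edgeR adjusted p = 0.043). With median-ratio scaling MAPK8 and ATF2 turned to -0.05 and -0.11 and were not called (edgeR adjusted p = 0.67 and 0.50). MAP3K1, another kinase upstream of JNK, MAPKAPK2, a target of p38, and JUND, a target of JNK, had the highest WT levels among those called lower, at 23.6 ± 2.6, 32.6 ± 1.3 and 33.2 ± 4.0 FPKM. MAP3K1 was at least 160-fold and MAPKAPK2 at least 120-fold lower, and JUND had 0, 0 and 4 KO counts.

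In the death arm all 9 genes in the table were at 0 in every KO library and the 4 tested were lower, near the background of 71.3% at 0 and 88.0% lower. BID, DIABLO and HTRA2, which act at or from mitochondria, had the highest WT levels, at 14.4 ± 0.31, 10.8 ± 1.5 and 11.5 ± 0.48 FPKM. In WT the genes for the necroptosis proteins RIPK3 and MLKL had at most 5 counts per library and CASP8, the apical caspase of the receptor, 23 to 35. At the WT share of counts the KO libraries together would hold 0.0518 counts of RIPK3, 0.114 of MLKL and 1.13 of CASP8, so their zeros show no difference.

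**Figure D4:**
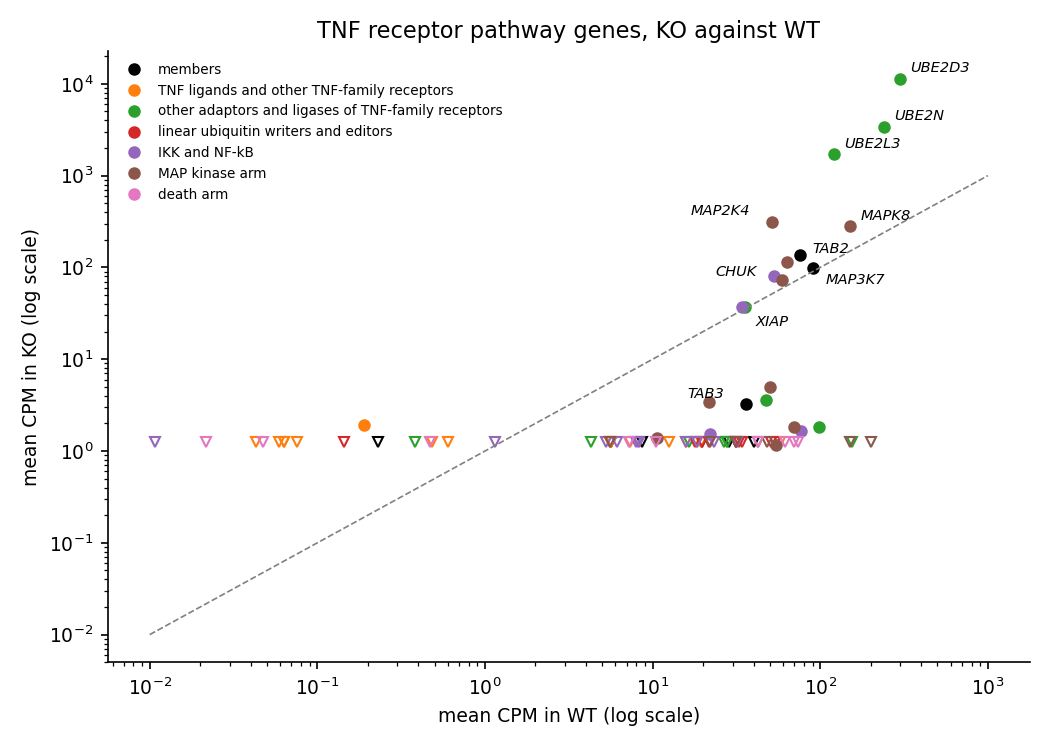
Mean CPM in KO against mean CPM in WT (both log scales) for the members (black) and the 6 further lists (colours, filled circles). Open triangles are genes at 0 in all KO libraries, placed at the limit of 1.25 CPM, and the dashed line marks equal levels. Most genes lie on the row of triangles, and the 3 conjugating enzymes UBE2D3, UBE2N and UBE2L3 lie highest above the line.

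Members and further genes with counts in every KO library and 30 or more in all numbered 11, which leaves out JUN, a target of JNK that had 2, 2 and 4 KO counts and was called lower. This choice uses the KO level and favours higher calls. Of all 1333 tested genes that meet it, 756 (56.7%) were called higher and 387 lower with TMM factors, 634 (47.6%) and 513 with median-ratio scaling, and 839 (62.9%) and 299 with library totals alone. With TMM factors 7 of these were called higher by edgeR and the other 4 were not called. Median-ratio scaling gave 4 higher, 4 lower (CHUK, MAP3K3, MAP3K7 and XIAP) and 3 not called. Library totals alone gave 9 higher and left MAP3K7 and XIAP uncalled. UBE2D3, UBE2N, UBE2L3 and MAP2K4 were called higher under all 3 scalings. Their log2 changes with median-ratio scaling were 4.30, 2.87, 2.86 and 1.66, against 4.86, 3.43, 3.43 and 2.22 with TMM factors and 5.26, 3.83, 3.82 and 2.62 with totals alone, the scale of the folds above. Of the stretches of 50 bases in the longest coding transcript, 3.84% for UBE2D3, 3.72% for UBE2N and 7.96% for UBE2L3 also occur in another gene on the same strand. For UBE2N 46.9% occur on the opposite strand, in NUDT4, so its counts are uncertain if strand was not used.

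**Figure D5:**
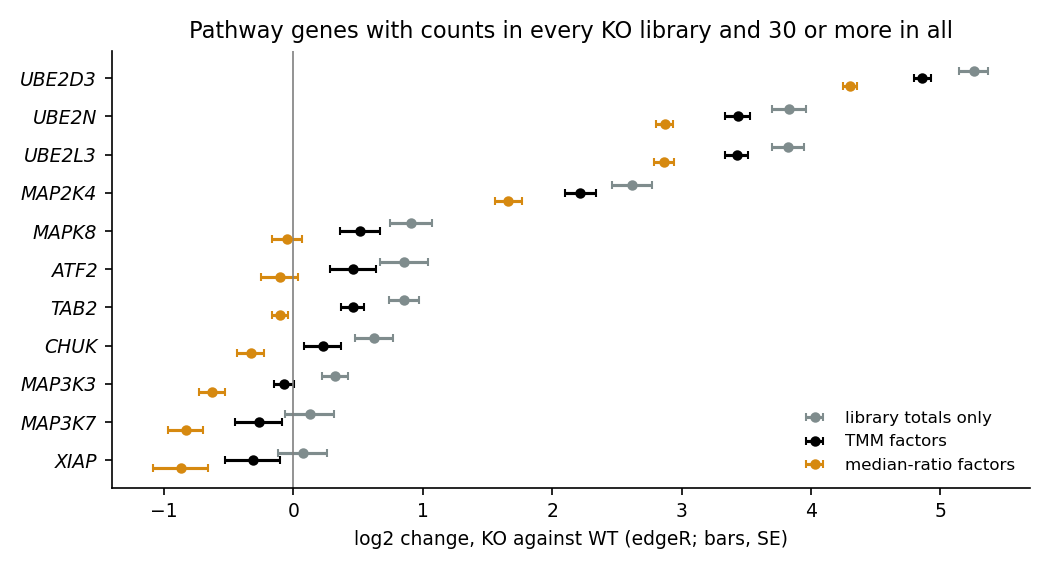
Log2 change (KO against WT, edgeR, with SE) of the 11 pathway genes with counts in every KO library and 30 or more in all, under 3 scalings. The 4 genes at the top stayed above 0 under each, TAB2, MAPK8, ATF2 and CHUK lay below 0 only with median-ratio factors, and MAP3K3, MAP3K7 and XIAP above 0 only with library totals.

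Transcript features of the members were compared with those of all tested genes, taking the longest coding transcript in GENCODE 29. TAB2 and MAP3K7 had long transcripts of low GC content, 4553 bases with 39.8% GC and 4911 bases with 38.7%. The 6 tested members without counts in every KO library ranged from 38.0% to 65.0% GC and from 1877 to 6671 bases. TRADD, TRAF2 and IKBKG were short and GC-rich, at 65.0%, 61.3% and 62.6% GC. BIRC2 (38.0% GC, 4066 bases) and TAB3 (39.9%, 6671 bases) were near TAB2 and MAP3K7 in GC content, with 0 and 7 KO counts. The 3' UTR of BIRC2 was shorter, at 483 bases, than those of TAB2 (1897), MAP3K7 (2931) and TAB3 (3988). Over members and further lists, the median GC content was 39.9% for the 12 genes with counts in every KO library and 56.9% for the other 42. Over all tested genes with such a transcript it was 45.1% for 1324 and 49.7% for 8206. When all these genes were put into 5 equal bins by transcript length, the share with any KO count was 18.8% in the bin of shortest transcripts and 44.3% in the longest. By 3' UTR length it was 21.0% in the shortest bin and 37.5% in the longest, and by GC content 31.7% in the lowest and 25.3% in the highest. Longer transcripts give more counts at the same FPKM, and the bins were not matched for expected counts. These are descriptions across genes, which share libraries and depth.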

How the data were processed

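Gene counts and FPKM values of 6 libraries were used. Per the file headers, the authors deposited whole-number counts, not normalized, and FPKM values, scaled by the authors to length and mapped fragments. Per the submitters' processing notes, the genome was hg38 and the tools were StringTie 1.3.4d, DESeq2, HISAT2 2.0.4 and cutadapt 1.9, whose roles are not stated. The annotation release is not given in the sources used here. Columns were matched to samples by library name, and 0 value columns were left unused.

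Counts were tested in R 4.3.3 by edgeR 4.0.16 (quasi-likelihood F test) with total counts as library sizes, TMM factors, genotype as the only term, and a mean of at least 1 FPKM. Calls have an adjusted p under 0.05, and SE was taken as the size of the log2 change divided by root F. The script was tested on simulated data in which most genes kept their WT level in both groups. In the real data most tested genes were at 0 in KO, so that test does not bear on these calls. Replicate pairs differed by a chi-square of 15.5 to 41.7 per degree of freedom, so none was a copy. Ratios within libraries were compared by exact permutation. Folds are ratios of mean CPM.

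The members, lists and tests were chosen with earlier results of these data known. Named were all members, OTULIN, copies of members, and in each further list the 3 genes highest in WT FPKM and up to 3 with the most KO counts. LTA, LTB, XIAP, TAB1, MAP3K3, RIPK3, MLKL, JUN and CASP8 were named after their values were seen. Alternatives were other filters and scalings, DESeq2 1.42.0, limma 3.58.1 on log2(FPKM + 1) or log2(FPKM + 0.1), a replicate block, and leaving out each library. Python 3.11.15, numpy 2.4.6, scipy 1.17.1, pandas 2.3.3 and matplotlib 3.10.9 were also used.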

Additional observations from a re-analysis of the deposited data

How the results depend on the processing

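Of all tested genes 9519 were called lower and 826 higher. These counts were 3851 lower with a mean of at least 5 FPKM (4719 genes tested), and 289 lower and 452 higher with a replicate block. Leaving out each library in turn gave 8737 to 10010 lower and 795 to 845 higher. Of the members 6 were called lower. This became 1 with at least 5 FPKM, where only TAB2 and MAP3K7 were tested, and 0 with the replicate block, where 1 of 8 had an unadjusted p under 0.05. Without a WT library it was 4 of 6 tested, because fewer members passed the filter, and without a KO library 7 of 9. The number called higher, 1 (TAB2), became 0 with at least 5 FPKM, median-ratio scaling, DESeq2 and the replicate block, where the unadjusted p of TAB2 was 0.11, 0.20, 0.36 and 0.095. The log2 change of TAB2 was -0.10 with median-ratio scaling and with DESeq2. That of MAP3K7 was 0.12 with library totals alone, 0.061 with limma on log2(FPKM + 1) and 0.065 on log2(FPKM + 0.1). The cause of these changes was not tested. The log2 ratio of TAB2 to MAP3K7 ran from 0.61 to 0.83 when each library was left out and was 0.74 in the replicate block (exact permutation p = 0.25, the smallest possible for 3 pairs). Same-numbered KO and WT libraries deviated with correlations of 0.015, -0.028 and 0.024 across 1513 genes, so no pairing by number was seen. With so few KO counts, counting error could hide a pairing. In KO the depth limits every gene under 3 counts, or 1.25 CPM over the group.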
